A study of Arabidopsis thaliana with 28 samples.

Results

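The comparison described here is that of nuclear RNA between mos11 mutants and wild type plants of Arabidopsis thaliana. Its members are the 5 mos11 and the 4 Col-0 nuclear columns of the deposited count table, 9 of 18 libraries, and the other 9 are cytoplasmic. All plants were 14-day-old rosettes grown in long days, wild type being the accession Col-0 and the mutant carrying a mos11 allele that the labels do not name. No other gene, strain or treatment differs between the groups per the labels, which give soil or MS medium as growth substrate without saying which plants had which. Since the labels do not say either whether the replicates were separately grown plants, the p-values measure only how much these libraries vary, and that variation may be technical. A rosette holds many cell types, so fewer cells of a type and less RNA per cell cannot be told apart.

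MOS11 is a small protein of the complex that couples transcription to the export of mRNA from the nucleus, where it works with the RNA helicase UAP56 and adaptor proteins of the ALY family. The gene was found through mutants that suppress the autoimmune growth of plants with an overactive SNC1, an intracellular immune receptor, and polyadenylated RNA accumulates in nuclei of mos11 cells. The study's question is which transcripts are affected by the loss of this export factor. RNA in nuclei holds freshly made transcripts, unspliced ones and those that wait for export, so a nuclear level can move with synthesis, processing, decay or export.

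Total counts were 2547560 to 3719008 in the Col-0 nuclear libraries and 1966574 to 18213517 in those of mos11, of which replicate 2 was the deepest and the only nuclear library sequenced on both flow cells. Levels below are in CPM, counts scaled by library size. The 4 Col-0 libraries were less alike than the 5 of mos11, with a biological coefficient of variation of 17.9% against 6.14%. On the first principal component, which held 51.4% of the variance, Col-0 replicates 1 to 4 lay at -21.2, -13.2, -63.4 and -33.4 and the mos11 libraries between 25.3 and 27.8. On the second, which held 16.5%, Col-0 replicates 1 and 2 lay at 30.9 and 32.3, replicate 3 at -24.6 and replicate 4 at -9.03. Col-0 replicates 3 and 4 therefore stand apart from 1 and 2, and list counts that moved by over 1.5 times with replicates 1 and 2 alone as the wild type are given both ways. Of the marker genes of leaf tissue, RBCS1A, a subunit of Rubisco, had 1582 ± 158 (SD, n = 4) CPM in Col-0 and 1594 ± 73.6 (SD, n = 5) in mos11, and the shoot meristem and flower markers STM, AG and AP3 were too low to be tested. The endodermal gene SCR and PYK10, both known from roots, were present at 954 ± 283 CPM for PYK10 in Col-0 and 1069 ± 60.2 in mos11, and neither these nor EXPA7, a root hair gene, passed the test.

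MOS11 itself, on chromosome 5 with 6 exons, was only slightly lower in mos11 nuclei. Its levels were 302, 296, 326 and 281 CPM in Col-0 and 281, 251, 260 and 255 CPM in mos11 replicates 1 to 4, with 240 CPM in replicate 5. Every mos11 library was below every Col-0 library, but the gap was small. The fitted log2 fold change was -0.23 ± 0.08 (SE), with an adjusted p of 0.046 in edgeR's quasi-likelihood test and p = 0.016 in a two-sided exact permutation test, the smallest value that 126 splits of 4 against 5 can give. Leaving out 1 library took the adjusted p past the threshold of 0.05 in 7 of 9 runs. In the cytoplasm the same gene was at a mean of 72.8 CPM in Col-0 and 5.68 CPM in mos11, a log2 fold change of -3.69 with an adjusted p of 8.6e-09 in edgeR. The difference between the fractions, 3.45 on the log2 scale, passed the interaction test in edgeR with an adjusted p of 1.8e-10. AT5G02760 overlaps MOS11 on the other strand, and reads of the pair may be shared, the strand setting being unknown.

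Among the 10 annotated genes on each side of MOS11, 5 had too few counts to be tested and 7 of the other 15 passed the test in nuclei, against 23.5% of all genes tested. GSTL1, a glutathione transferase of the lambda class and the next gene on one side, was at 1.21, 3.86, 0.787 and 2.90 CPM in Col-0 and between 6.04 and 9.10 CPM in mos11, 3.1-fold higher with an adjusted p of 0.0024. AT5G02830, which encodes a tetratricopeptide repeat protein, rose by 0.84 ± 0.15 (SE) on the log2 scale and LCL1, a clock gene of the same family as the morning factors, by 0.31. PRR7, a clock repressor, fell by 0.84 ± 0.12, AT5G02860, a pentatricopeptide repeat protein gene, by 0.57, AT5G02710, with a zinc and iron chelating domain, by 0.37 and AT5G02680, annotated as a tRNA ligase, by 0.32. The calls of AT5G02680, LCL1 and AT5G02860 were lost in 5, 4 and 2 of the 9 runs that left out 1 library, with adjusted p-values of up to 0.057, 0.094 and 0.067.

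Of 30901 genes in the table, 17073 had enough counts to be tested, and 4013 of these (23.5%) passed an adjusted p of 0.05. Of all genes tested, 2082 (12.2%) were higher and 1931 (11.3%) lower in mos11 nuclei. Most of the differences were small, with a median fold of 1.53 over the genes called, and 46.8% of them were under 1.5-fold. Changes over 2-fold numbered 717 (4.2% of genes tested), of which 460 (2.69%) were higher and 257 (1.51%) lower, and 79 were over 4-fold. The median log2 fold change of all genes tested was -0.015. The groups did not overlap for 3637 genes (21.3%), 11.1% higher and 10.3% lower, and 36.1% of genes had an unadjusted p under 0.05. With each library left out in turn, 2431 of the calls (60.6%) passed in every run, among them 609 of the 717 over 2-fold (84.9%). Against Col-0 replicates 1 and 2 alone, 4435 genes were called, and 3062 of them were also called with all 4.

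The largest fall was that of QQS, an orphan gene of Arabidopsis that affects how carbon and nitrogen are shared between starch and protein. Its levels were 142, 137, 180.3 and 147 CPM in Col-0 and 1.85, 1.32, 2.64, 1.37 and 0.514 CPM in mos11. No library of either group came near those of the other. The fall was 101-fold, a log2 fold change of -6.66 ± 0.18 (SE), with an adjusted p of 3e-10 in edgeR. The labels do not give the history of the mutant line, so for QQS, as for MRD1 and the TIR genes below, an effect of mos11 and another difference in the genetic background of the line cannot be told apart. The 250 bases before the annotated start of QQS on chromosome 3 (chr3:12348797-12349046, plus strand, build TAIR10.1, RefSeq annotation) are shown because no other gene at this level fell as far, and they hold none of the motifs searched for below, on either strand.
QQS promoter: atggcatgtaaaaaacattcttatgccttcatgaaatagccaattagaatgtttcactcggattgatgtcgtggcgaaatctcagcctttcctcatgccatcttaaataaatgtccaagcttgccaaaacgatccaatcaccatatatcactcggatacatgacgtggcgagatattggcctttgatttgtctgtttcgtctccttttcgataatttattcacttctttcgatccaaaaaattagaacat

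MRD1, a gene known to be repressed in the methionine-overaccumulating mutant mto1, followed at 14.9, 16.8, 22.1 and 18.9 CPM in Col-0 against 0.370, 0.110, 0.755, 0.0 and 0.514 CPM in mos11. It was under 1 CPM in every mos11 nuclear library, and in the cytoplasm its mean was 10.4 CPM in Col-0 and 0.0 CPM in mos11. The nuclear log2 fold change was -6.18 ± 0.35 (SE, adjusted p = 5.9e-07 in edgeR), and -5.28 without mos11 replicate 2, the deepest library. HEI10, a meiotic crossover gene that overlaps MRD1 on the other strand, fell as well, from a mean of 24.6 to 7.62 CPM (log2 fold change -1.79, adjusted p = 0.00039), and reads of the pair may not be separable. It was named after its values were seen.

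The genes that followed in size of fall include several whose Col-0 libraries differed widely. XTH15, a wall-loosening xyloglucan enzyme, was at 15.3 and 12.4 CPM in Col-0 replicates 1 and 2, at 195 CPM in replicate 3 and at 41.2 CPM in replicate 4, against 3.64 to 6.04 CPM in mos11. The fitted difference of -3.91 ± 0.80 on the log2 scale became -2.45 when Col-0 replicate 3 was left out. MIOX2, a myo-inositol oxygenase, moved in the same way from -2.42 to -1.59 and AT2G31010, a protein kinase gene, from -2.41 to -1.79 without that library, and all 3 stayed past the threshold. Others were more even. AT5G51790, which encodes a bHLH protein, was at 26.1 to 43.3 CPM in Col-0 and 4.1 to 8.68 CPM in mos11, and Fes1B, an exchange factor of the Hsp70 chaperones, was at 45.0 to 72.4 CPM against 10.8 to 14.1 CPM. The log2 fold changes were -2.45 ± 0.20 and -2.16 ± 0.16 (SE). AT1G50040, annotated as a putative formin-like protein, AT2G42170 of the actin family, TRFL8 of the telomere repeat binding factor family and OEP16-1, a channel of the outer chloroplast envelope, fell by 2.90, 2.36, 2.28 and 2.29 on the log2 scale.

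The falls with the least scatter were in other genes. AT1G60200, which encodes a protein with the PWI and RNA recognition domains of splicing factors, was at 997, 901, 946 and 795 CPM in Col-0 and at 255, 226, 231, 246 and 205 CPM in mos11, a log2 fold change of -1.97 ± 0.09 (SE, adjusted p = 1.2e-07 in edgeR). All Col-0 libraries were far above all those of mos11. PLDGAMMA2, a phospholipase D, was at 460, 481, 533 and 419 CPM against 149, 146, 146, 146 and 126 CPM (-1.73 ± 0.09). AT4G05631, an uncharacterized gene, fell from a mean of 1711 ± 93.8 CPM (SD, n = 4) to 589.8 ± 39.5 CPM (SD, n = 5). AT4G38950 and AT1G21730, which encode a microtubule motor protein and a nucleoside triphosphatase, fell by 1.65 and 1.1 on the log2 scale, AT1G25230, a metallophosphoesterase gene, by 1.76, and IMK2, a receptor-like kinase gene, by 1.84. Their standard errors were 0.07 to 0.12, and in none of the 7 did the groups overlap.

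**Figure D1:**
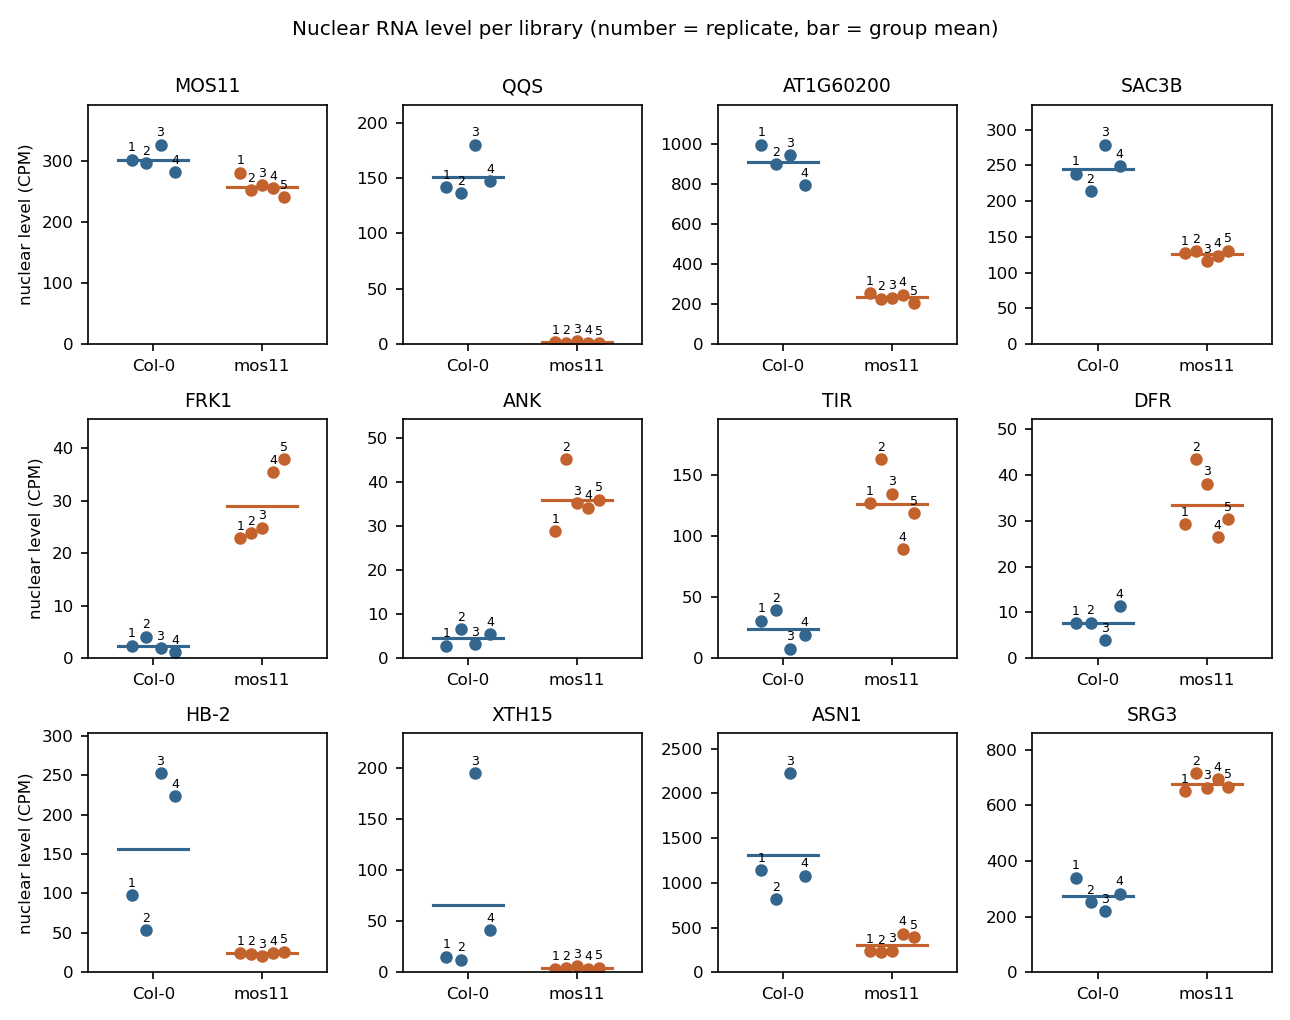
Nuclear level in CPM of 12 genes in each of the 4 Col-0 and 5 mos11 libraries (points, numbered by replicate, with the group mean as a bar and each vertical axis starting at 0). The groups do not overlap for any of the 12 genes, and Col-0 replicate 3 is the highest of its group for XTH15, HB-2 and ASN1 and the lowest for TIR and DFR.

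Several of the largest rises were in genes of immunity. FRK1, a receptor-like kinase gene that is a standard marker of the response to microbial patterns, was at 2.41, 4.14, 1.97 and 1.16 CPM in Col-0 and at 22.9, 23.9, 24.9, 35.5 and 38.0 CPM in mos11. Its log2 fold change was 3.49 ± 0.29 (SE, adjusted p = 1.4e-05 in edgeR). ANK, an ankyrin repeat gene induced by salicylic acid, was at 2.82, 6.62, 3.15 and 5.51 CPM against 28.8, 45.2, 35.1, 34.1 and 36 CPM (2.95 ± 0.22, adjusted p = 6.6e-06). In both genes every Col-0 library was far below the lowest mos11 library. ACD6, an ankyrin membrane protein that raises salicylic acid, went from a mean of 68.8 ± 32.2 CPM to 366 ± 61.5 CPM, LURP1, a gene of the defence against oomycetes, from 22.9 ± 10.2 to 119.8 ± 31.2 CPM, and SAG13, a gene of senescence and defence, from 5.10 ± 3.84 to 29.0 ± 7.01 CPM (SD, n = 4 and 5). Without Col-0 replicate 2 the log2 fold change of SAG13 was 3.06 in place of 2.44. A lncRNA gene, AT1G09437, had the largest rise of all genes at this level, from 0.0, 0.552, 1.18 and 0.870 CPM to between 14.4 and 23.7 CPM (4.65 ± 0.35). It lies on the other strand of AT1G74360, a receptor kinase gene whose own log2 fold change was -0.19 with an adjusted p of 0.46 and which was named after its values were seen. FRK1 and ANK also overlap a gene on the other strand, AT2G19180 and RPL24, with log2 fold changes of 0.00 and -0.27.

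Other large rises were in genes of varied roles. BBX32, a B-box protein gene of light signalling, was at 2.41, 5.52, 1.18 and 0.580 CPM in Col-0 and between 12.8 and 25.4 CPM in mos11, with a log2 fold change of 3.03 ± 0.38 (SE), or 4.00 without Col-0 replicate 2. AT2G27420, a cysteine proteinase gene, and AT3G09450, annotated in the fusaric acid resistance family, rose by 2.89 ± 0.39 and 2.56 ± 0.26. PHT1;5, a transporter that moves phosphate between organs, was at 3.62, 1.66, 1.97 and 5.22 CPM against 14.0, 17.0, 16.2, 15.5 and 20.5 CPM (2.39 ± 0.26). The rises with the least scatter were smaller. NAP, a NAC factor of leaf senescence, was at 107, 80.9, 70.1 and 80.6 CPM in Col-0 and at 239, 244, 227, 237 and 223 CPM in mos11 (1.47 ± 0.11, adjusted p = 6.3e-06 in edgeR). Its mos11 libraries lay within a narrow band well above the highest Col-0 library. The same held for G3Pp1, a glycerol phosphate permease gene, at 159 to 243 CPM against 479.7 to 515 CPM, and for SRG3, a glycerophosphodiester phosphodiesterase gene, at 219 to 340.2 CPM against 651 to 715 CPM. BOR5, of the borate transporter family, DOGT1, a glucosyltransferase gene that acts on brassinosteroids and a fungal toxin, and AT5G44580, an uncharacterized gene, rose by 1.73 ± 0.13, 1.59 ± 0.14 and 1.53 ± 0.11.

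A run of genes for TIR domain proteins on chromosome 1 rose together. TIR domains are the signalling parts of one class of intracellular immune receptors, and the genes of this run encode short proteins that lack most of the receptor. TIR (AT1G72930) was at 30.6, 39.5, 7.87 and 19.1 CPM in Col-0 and at 127, 163, 134, 89.2 and 119 CPM in mos11, with a log2 fold change of 2.37 ± 0.30 (SE, adjusted p = 0.00018). Its neighbours AT1G72910 and AT1G72920 rose by 2.69 ± 0.28 and 2.32 ± 0.32, and AT1G72940 by 1.41 ± 0.29, although the groups overlapped for the last. AT1G72920 was at 2.95 without Col-0 replicate 2. At the edges of the run the differences were smaller, 0.51 for AT1G72900 (adjusted p = 0.014), 0.53 for AT1G72950 (adjusted p = 0.23) and 1.07 for AT1G72960 (adjusted p = 0.01), a GTP-binding protein gene, and the next gene HTH was at 0.08 (adjusted p = 0.72). With Col-0 replicates 1 and 2 alone as the wild type AT1G72960 was at 0.67 and no longer called. HTH and AT1G72960 were looked up after the values of the run were seen. The genes of this run resemble each other in sequence, and reads could be assigned to the wrong one.

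The promoters of FRK1, ANK and TIR are shown because the W-box, the site of the WRKY transcription factors of immunity, occurs in each. The letters searched were TTGACC and TTGACT on both strands, and the capitals mark the matches. They start 47 and 29 bases before the annotated start of FRK1 (chr2:8329945-8330194, minus strand), 207 and 172 before that of ANK (chr5:22186634-22186883, minus strand) and 221 and 125 before that of TIR (chr1:27438990-27439239, plus strand), all in build TAIR10.1 with RefSeq starts.
FRK1 promoter: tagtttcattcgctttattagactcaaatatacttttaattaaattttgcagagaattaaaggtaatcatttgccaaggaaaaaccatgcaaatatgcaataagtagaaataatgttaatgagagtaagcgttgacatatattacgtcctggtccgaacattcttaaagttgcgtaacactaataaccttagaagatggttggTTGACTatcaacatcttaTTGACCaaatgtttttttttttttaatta
ANK promoter: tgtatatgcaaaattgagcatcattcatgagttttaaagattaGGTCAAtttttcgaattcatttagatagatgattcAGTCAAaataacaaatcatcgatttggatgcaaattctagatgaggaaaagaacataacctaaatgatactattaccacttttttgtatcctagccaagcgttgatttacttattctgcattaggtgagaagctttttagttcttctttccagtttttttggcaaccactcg
TIR promoter: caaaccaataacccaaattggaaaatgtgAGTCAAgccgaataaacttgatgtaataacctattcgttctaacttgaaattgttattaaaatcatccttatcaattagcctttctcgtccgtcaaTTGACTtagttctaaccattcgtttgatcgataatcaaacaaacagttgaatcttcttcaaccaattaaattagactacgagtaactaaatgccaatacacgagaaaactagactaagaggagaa

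In windows of 300 bases, from 250 before to 50 after the start, 31.8% of all genes of the table and 32.7% of the genes tested held a W-box. The share was 39.3% of the 460 genes that rose over 2-fold and 33.1% of the 257 that fell over 2-fold. A match to these letters is a description and says nothing about binding.

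Lists of known genes are described next. They hold some of the examples above, such as ACD6, FRK1 and TIR, and were chosen with earlier results of these data known. They are therefore no independent support for these examples. Of 27 tested members of the list for salicylic acid synthesis and signalling, 11 were higher and 0 lower, with a median log2 fold change of 0.36 against -0.015 over all genes tested, of which 12.2% were higher. SARD1, a transcription factor that switches on salicylic acid synthesis, went from 5.23, 9.93, 4.72 and 5.51 CPM to between 14.0 and 18.7 CPM (1.31 ± 0.21), PAD4, a lipase-like partner of the TIR receptors, from a mean of 13.1 to 24.0 CPM, and PR1, the classical marker of this hormone, from 1.52 to 4.94 CPM. EDS16, the enzyme that makes most of the hormone, was at 23.2 CPM in Col-0 and 25.7 CPM in mos11 and did not pass the test, and DMR6, which hydroxylates it, was at 65.3 and 88.7 CPM with an adjusted p of 0.11. The count of 11 was 7 without Col-0 replicate 4 and also without mos11 replicate 2, 3 or 4.

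Of 25 genes for intracellular immune receptors and TIR proteins, 10 were higher and 0 lower, against 12.2% and 11.3% of all genes tested, and 5 of the 10 are genes of the run on chromosome 1 described above, which was known before the count was made. Against Col-0 replicates 1 and 2 alone 10 were higher, 9 of them the same genes, and RPP4, RPP5 and RPS6 were lower. The list took 0.431% and 0.467% of all counts in Col-0 replicates 1 and 2, 0.303% and 0.314% in replicates 3 and 4 and 0.436% to 0.46% in mos11. SNC1, the receptor that gave MOS11 its name, was at 491 and 586 CPM in Col-0 replicates 1 and 2, at 250 and 305 CPM in replicates 3 and 4 and between 602 and 675 CPM in mos11, a log2 fold change of 0.66 ± 0.20 (adjusted p = 0.029). Its groups did not overlap, but Col-0 replicate 2 lay just below the lowest mos11 library. The call was lost in 5 of the 9 runs that left out 1 library, with adjusted p-values of up to 0.081, and the log2 fold change was 0.25 with Col-0 replicates 1 and 2 alone as the wild type. RPS2 and RPP13, receptors for bacterial and oomycete effectors, rose by 0.84 ± 0.12 and 0.74 ± 0.09. RPP4, the neighbour of SNC1 in the same gene cluster, was at a mean of 842 CPM in Col-0 and 602 CPM in mos11 and did not pass the test (adjusted p = 0.11). Reads of SNC1, RPP4 and RPP5 may be split between these similar genes.

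Of 21 genes of pattern recognition and early defence, 6 were higher and 1 was lower, 33.3% in all against 23.5% of all genes tested. The count of lower genes was 3 without Col-0 replicate 4 and 2 without Col-0 replicate 1 or 2. It was 3 with Col-0 replicates 1 and 2 alone as the wild type. SOBIR1, the co-receptor of receptor-like proteins, rose from 41.2 to 56.7 CPM in Col-0 to 76.0 to 90.2 CPM in mos11, MPK3, a kinase of the immune cascade, from 67.7 to 118 CPM to 156 to 193 CPM, and RBOHD, the oxidase of the oxidative burst, from 95.7 to 195 CPM to 245 to 277 CPM. FLS2, the receptor of flagellin, went the other way, at 114, 82.0, 341 and 258 CPM in Col-0 against 51.0 to 62.8 CPM in mos11 (-1.79 ± 0.33, adjusted p = 0.0019), and its log2 fold change was -0.73 with Col-0 replicates 1 and 2 alone. WRKY22, which acts below FLS2, fell likewise from 56.8 to 119 CPM to 20.4 to 26.9 CPM and was the single WRKY gene of 45 tested that was called lower, with 2 so called without Col-0 replicate 2 or 4 and 3 with Col-0 replicates 1 and 2 alone. Of the others, 12 rose, led by WRKY70, a regulator of the salicylic acid response, from 27.4, 66.2, 19.3 and 23.2 CPM to between 136 and 168 CPM (2.1 ± 0.27, and 2.69 without Col-0 replicate 2). WRKY40 rose by 1.27, WRKY53 by 1.13, WRKY57 by 0.93 and WRKY47 by 0.55 on the log2 scale. WRKY33, a regulator of camalexin synthesis, had an adjusted p of 0.038 with means of 229.8 CPM in Col-0 and 466 CPM in mos11, and this call was lost in 6 of the 9 runs that left out 1 library. With Col-0 replicates 1 and 2 alone as the wild type its log2 fold change was 0.39 in place of 1.02. WRKY19 was at 285 CPM in Col-0 and 306 CPM in mos11 and did not pass the test. In all, 28.9% of the WRKY genes tested were called, against 23.5% of all genes tested, of which 12.2% were higher.

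The receptor families were mixed in direction. Called were 42.9% of the cysteine-rich receptor kinase list and 43.2% of the receptor-like protein list, against 23.5% of all genes tested. Of 28 cysteine-rich receptor kinase genes, a list drawn by symbol that also takes calcium-dependent kinase relatives such as CRK1, 9 were higher and 3 lower, with 5 lower without Col-0 replicate 3 and 7 of 32 lower with Col-0 replicates 1 and 2 alone. CRK4 rose from a mean of 19.4 to 52.5 CPM, whereas CRK28 and CRK29, adjacent genes that overlap on the same strand, fell by 1.23 ± 0.20 and 1.05 ± 0.19. Of 37 receptor-like protein genes, 11 were higher and 5 lower, and 3 were lower without Col-0 replicate 3 or mos11 replicate 1, 2 or 5. RLP38 and RLP36, both on chromosome 3, rose by 2.31 ± 0.22 and 1.76 ± 0.20 and RLP50 by 1.15 ± 0.14.

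Of the genes that respond rapidly to touch, wounding or other stress, most were higher in mos11 nuclei, with 11 higher and 1 lower of 19 tested and a median log2 fold change of 0.96. The share called was 63.2%, against 23.5% of all genes tested. The members encode mostly transcription factors. AT5G51190, an ERF factor, was at 8.04, 10.5, 7.09 and 6.38 CPM in Col-0 and at 42.5, 42.7, 47.6, 27.3 and 28.3 CPM in mos11 (2.25 ± 0.21, adjusted p = 2.5e-05), and ERF104 was at 35.4 to 41.4 CPM against 79.6 to 113 CPM. STZ, a zinc finger repressor of stress responses, went from 6.96 to 16.3 CPM to 28.2 to 55.4 CPM, CZF1, another zinc finger gene, from 37.8 to 54.6 CPM to 93.3 to 126 CPM, and CAF1a, a deadenylase that shortens mRNA tails, from 24.1 to 31.5 CPM to 50.3 to 106 CPM. TCH4, a touch-induced wall enzyme, was the exception and fell from 194 to 338 CPM to 95.2 to 140.2 CPM (-1.2 ± 0.16). The count of 11 was 10 to 13 in the runs that left out 1 library, and W-boxes stood in the 300-base window of 8 of the 12 members called (66.7%), TCH4 among them, against 32.7% of all genes tested. Over the 250 bases before the start alone they stood in 6 of the 12, against 28.1% of all genes tested. In the other lists searched, the 300-base window held a W-box in 30.8% of the called WRKY genes. The share was 36.8% of the called flavonoid genes and 42.1% of the called shade genes.

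Of the genes of flavonoid and anthocyanin synthesis, 19 of 22 tested were higher in mos11 nuclei and 0 were lower, against 12.2% and 11.3% of all genes tested. This pathway turns phenylalanine into flavonols and the red anthocyanins. At its entry, PAL1, the first enzyme, rose from 48.4 to 104 CPM to 143 to 188 CPM, and 4CL3, the ligase that feeds the flavonoid branch, from 4.33 to 17.7 CPM to 37.5 to 61.0 CPM. TT4, chalcone synthase, was at 49.1, 52.2, 28.4 and 77.7 CPM in Col-0 and at 121, 141, 137, 122 and 121 CPM in mos11 (1.3 ± 0.20, adjusted p = 0.00056). TT5, chalcone isomerase, rose by 1.48 ± 0.15, TT7, flavonoid 3'-hydroxylase, by 1.77 ± 0.18 and FLS1, flavonol synthase, by 1.8 ± 0.25 on the log2 scale. On the anthocyanin branch, DFR, the reductase that opens it, was at 7.64, 7.73, 3.94 and 11.3 CPM in Col-0 and at 29.2, 43.5, 38.1, 26.4 and 30.3 CPM in mos11 (2.14 ± 0.23, adjusted p = 7.1e-05). TT8, a bHLH regulator of this branch, rose from 3.94 to 6.38 CPM to 11.8 to 26.6 CPM. The related bHLH genes GL3 and EGL3 and the repressor MYBL2, at 176 CPM in Col-0 and 196 CPM in mos11, did not pass the test. All 22 log2 fold changes were positive, with a median of 1.39. The count of 19 was 17 to 21 without any 1 library, and 22 of 25 tested with Col-0 replicates 1 and 2 alone as the wild type.

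The promoters of TT4 and DFR are shown because each holds a G-box, the site CACGTG of bHLH and bZIP factors, which is its own reverse complement and is marked by capitals. It starts 233 bases before the annotated start of TT4 (chr5:4488226-4488475, plus strand) and 14 before that of DFR (chr5:17166033-17166282, minus strand) in TAIR10.1. Of the 19 members called, 4 (21.1%) held it in the 300-base window, against 7.27% of all genes of the table. TT4 lies outside the rule by which genes were named and was added after its values were seen.
TT4 promoter: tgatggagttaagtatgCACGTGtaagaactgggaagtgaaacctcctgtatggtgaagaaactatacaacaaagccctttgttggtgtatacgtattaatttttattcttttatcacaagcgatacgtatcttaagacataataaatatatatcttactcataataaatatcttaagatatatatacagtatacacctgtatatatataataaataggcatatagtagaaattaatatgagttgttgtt
DFR promoter: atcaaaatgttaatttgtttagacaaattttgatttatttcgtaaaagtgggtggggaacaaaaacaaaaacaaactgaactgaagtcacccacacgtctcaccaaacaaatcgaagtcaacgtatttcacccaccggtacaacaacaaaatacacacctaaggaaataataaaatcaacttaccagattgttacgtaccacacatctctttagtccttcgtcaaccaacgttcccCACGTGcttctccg

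The list of genes of shade and of the PIF transcription factors, which drive elongation in low light, was lower in mos11 nuclei, with 15 lower and 4 higher of 26 tested and a median log2 fold change of -0.98. Of all genes tested, 11.3% were lower and 12.2% higher. The differences of the list rest in large part on Col-0 replicates 3 and 4. HB-2, a homeodomain gene that shade induces, was at 97.7, 53.5, 252 and 223 CPM in Col-0 and at 24.8, 23.9, 20.4, 24.6 and 26.2 CPM in mos11 (-2.71 ± 0.37, adjusted p = 0.00028). Its relative HB4 was at 26.9, 9.93, 27.2 and 45.0 CPM against 1.11 to 3.64 CPM, and PAR1, an atypical bHLH gene, at 29.0, 20.1, 104 and 58.3 CPM against 8.65 to 12.1 CPM. YUC9, an enzyme of auxin synthesis, was at 8.04, 5.24, 23.2 and 25.8 CPM against 3.08 to 4.53 CPM. In these 4 genes the groups did not overlap, and Col-0 replicate 3 or 4 was the highest library. HAT1, a further homeodomain gene, did not follow them, with 237, 238, 168 and 217 CPM in Col-0 and 68.3 to 95.9 CPM in mos11 (-1.45 ± 0.12, adjusted p = 1.2e-05). The PIF genes themselves were not lower. PIF3 rose by 0.69 ± 0.10, PIL6 by 0.48 ± 0.09 and PIF7 by 0.98 ± 0.22, and PIF4 was at 337 CPM in Col-0 and 387 CPM in mos11 and did not pass the test.

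Without Col-0 replicate 3 the list had 12 lower and 5 higher, and with Col-0 replicates 1 and 2 alone as the wild type 10 lower, all among the 15, and 7 higher with a median of -0.04. The median deviation of the list from the mean of the 9 libraries was 0.03, -0.28, 1.34 and 0.78 in Col-0 replicates 1 to 4 and -0.22 to -0.39 in mos11, on the scale of log2 (CPM + 1). By this median over members of both directions replicates 1 and 2 lay nearer to the mos11 libraries than replicates 3 and 4 did. Single members that fell were still apart with replicates 1 and 2 alone, with log2 fold changes of -2.83 for HB4, -1.62 for HB-2 and -1.29 for PAR1.

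Genes that darkness and carbon starvation induce were lower as well, with 14 lower and 1 higher of 22 tested and a median of -0.87. The share called was 68.2%, against 23.5% of all genes tested. ASN1, an asparagine synthetase that light represses, was at 1144, 817, 2227 and 1083 CPM in Col-0 and at 234, 229, 242, 431 and 392 CPM in mos11 (-2.11 ± 0.28, adjusted p = 0.00023). The groups were well apart, with mos11 replicates 4 and 5 above the other mos11 libraries. AT2G33830, a dormancy gene, went from 57.1 to 155 CPM to 16.7 to 29.3 CPM and DIN10, a gene of raffinose metabolism, from 1551 to 3934 CPM to 819.8 to 1339 CPM. MCCA, which takes part in leucine breakdown, and SEN1 fell by 1.6 and 1.37 on the log2 scale. BMY3, a beta-amylase family gene, was the member that rose, from 106 to 123 CPM to 222 to 272 CPM (1.11 ± 0.09), and TPS8 and TPS11, of the trehalose phosphate family, were at 1077 and 706 CPM in Col-0 and 1238 and 690.0 CPM in mos11 and did not pass the test. Against Col-0 replicates 1 and 2 alone 13 of the 14 were still called lower, but the differences were smaller, with a median of -0.43, MCCA at -0.81 and SEN1 at -0.79. The deviation of the list was 0.20, 0.02, 1.12 and 0.24 in Col-0 replicates 1 to 4 and -0.09 to -0.49 in mos11.

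**Figure D2:**
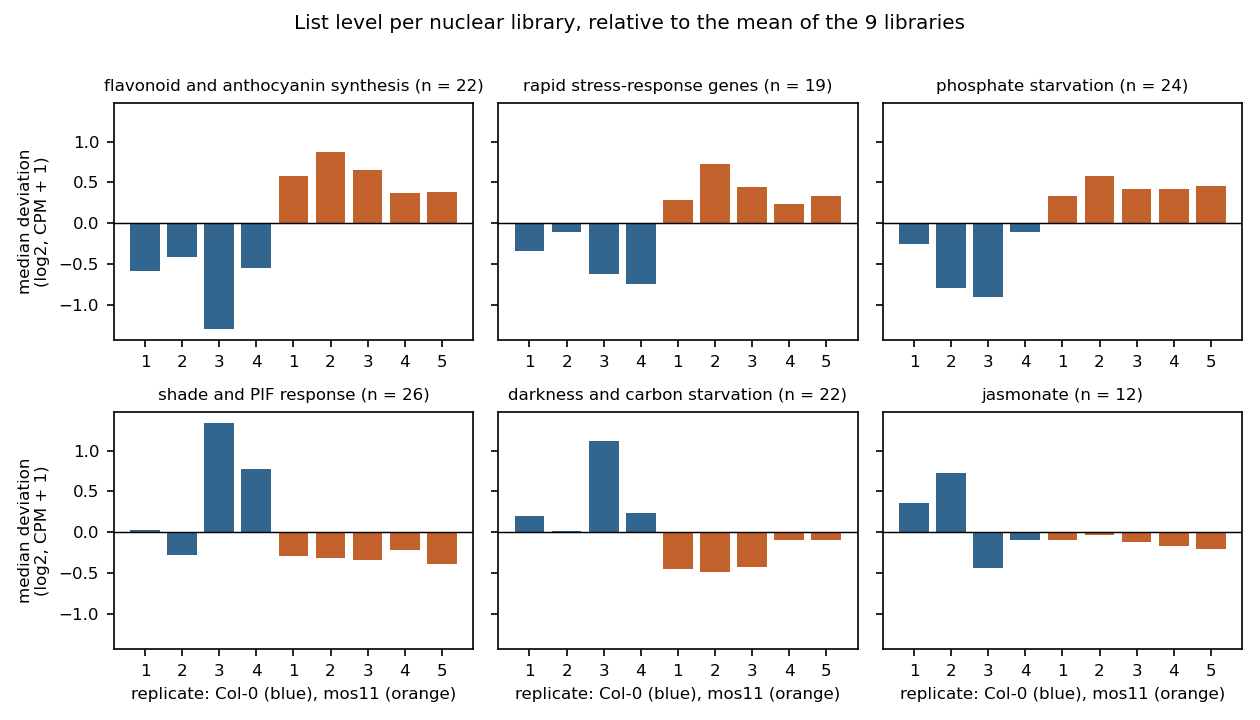
Median deviation of the members of 6 gene lists in each nuclear library from their mean over the 9 libraries, on the scale of log2 (CPM + 1), for Col-0 replicates 1 to 4 (blue) and mos11 replicates 1 to 5 (orange). The phosphate list was chosen after its values were seen. The flavonoid, rapid stress-response and phosphate lists are below 0 in every Col-0 library and above 0 in every mos11 library, while the shade list is high in Col-0 replicates 3 and 4 and the jasmonate list in replicates 1 and 2.

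Genes of the circadian clock moved in both directions, 7 higher and 4 lower of 21 tested, 52.4% in all against 23.5% of all genes tested. AT3G54500, known as LNK2, which activates evening genes, was at 2899, 2948, 2646 and 2949 CPM in Col-0 and 1614 to 1678 CPM in mos11 (-0.81 ± 0.07, adjusted p = 1.9e-05). Its groups were tight and far apart. PRR7 was at 774, 731, 1010 and 614 CPM in Col-0 and 415 to 458 CPM in mos11. RVE1, a morning factor of auxin synthesis, rose from 87.7, 107, 37.4 and 36.8 CPM to 184 to 227 CPM, PRR9 from 29.3 to 74.0 CPM to 87.8 to 112 CPM and LHY, a core morning factor, from 110 to 177 CPM to 209 to 253 CPM. The other core morning factor CCA1 was at a mean of 292 CPM in Col-0 and 359 CPM in mos11 and did not pass the test (adjusted p = 0.26). TOC1, GI and ELF3 did not pass it either, with log2 fold changes of -0.21 to -0.25. The hour of harvest is not given in the labels.

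The evening element, AAATATCT, is the site through which morning factors repress genes of the evening. It occurred in the 300-base window of 5.45% of all genes of the table and of 5.84% of the genes tested. The share was 9.48% of the 1931 genes that fell, 10.9% of the 257 that fell over 2-fold and 4.85% of the 2082 that rose. Of the 13059 tested genes that were not called, 5.46% held it. Over the 250 bases before the start alone, the shares were 6.99% of the genes that fell and 4.42% of those that rose. No test was made of these shares. Windows of 2 genes that fell are shown with the element in capitals, AT2G30600 (chr2:13036564-13036813, plus strand), where it starts 14 bases before the annotated start, and AT1G22570 (chr1:7978811-7979060, minus strand), where it starts 110 bases before it. AT2G30600, a BTB domain gene, was at 980.0, 896, 1949 and 1294 CPM in Col-0 and 408 to 568 CPM in mos11, and AT1G22570, a transporter gene of the major facilitator family, at 32 to 51.2 CPM against 10.6 to 15.9 CPM. Both were chosen for display after their values were seen.
AT2G30600 promoter: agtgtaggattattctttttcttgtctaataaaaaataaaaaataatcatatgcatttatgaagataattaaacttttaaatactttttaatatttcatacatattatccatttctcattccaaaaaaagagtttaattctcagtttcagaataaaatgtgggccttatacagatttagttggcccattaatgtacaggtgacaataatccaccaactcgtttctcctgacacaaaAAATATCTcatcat
AT1G22570 promoter: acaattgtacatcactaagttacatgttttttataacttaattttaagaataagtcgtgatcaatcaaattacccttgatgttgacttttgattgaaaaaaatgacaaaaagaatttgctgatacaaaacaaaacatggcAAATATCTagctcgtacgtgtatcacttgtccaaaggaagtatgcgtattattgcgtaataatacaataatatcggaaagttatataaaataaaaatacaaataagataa

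The other genes of mRNA export changed little. Of 28 tested, 4 were lower, among them MOS11, and 0 were higher, so that 14.3% were called against 23.5% of all genes tested. SAC3B, a scaffold of the complex that docks export to the nuclear pore, was at 238, 214, 279 and 248 CPM in Col-0 and 116 to 130.4 CPM in mos11 (-0.96 ± 0.09, adjusted p = 2.1e-05). Its paralog SAC3A fell by 0.38 ± 0.07 and the adaptor gene AT1G66260 of the ALY family by 0.36 ± 0.09. Neither helicase gene for the direct partner of MOS11 passed the test, with UAP56a at 255 CPM in each group with a log2 fold change of 0.00 ± 0.07 and UAP56b at 120.1 CPM in Col-0 and 117 CPM in mos11. NUA, the large filament protein of the nuclear pore, and THO2, a scaffold of the THO complex, did not pass the test either, at 519 and 283 CPM in Col-0 and 501 and 251 CPM in mos11. Of 25 genes for splicing factors and RNA-binding proteins, 4 were lower and 0 higher, so that 16.0% were called, below the share over all genes tested. Beside AT1G60200 these were GRP7, a clock-controlled RNA-binding protein, at 50.3, 39.2, 125 and 47.6 CPM in Col-0 and 30.3 to 40.8 CPM in mos11, with groups that overlapped, and the serine/arginine-rich factors RS40 and SR34b, which fell by 0.43 and 0.28. The calls of these 3 were lost in 6, 4 and 2 of the 9 runs that left out 1 library, and the log2 fold change of GRP7 went from -0.87 to -0.34 without Col-0 replicate 3. The list had 1 lower without mos11 replicate 2 or 5, 2 lower without mos11 replicate 3 or 4, and 2 higher without Col-0 replicate 3. With Col-0 replicates 1 and 2 alone, 2 were higher and 2 lower in this list, and 2 were higher and 4 lower in that of mRNA export. ATU2AF65A and U1-70K, core factors of splice site recognition, were at 947 and 449.6 CPM in Col-0 and 904 and 415 CPM in mos11 and did not pass the test.

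Of 20 genes of abscisic acid, the drought hormone, 9 were higher and 2 lower, and 7 were higher and 3 lower with Col-0 replicates 1 and 2 alone as the wild type. With all libraries the share called was 55.0%, against 23.5% of all genes tested. The median deviation of this list was -0.03, -0.06, -0.56 and -0.31 in Col-0 replicates 1 to 4. NCED3, which makes its precursor, fell from 34.3 to 49.0 CPM to 18.1 to 26.0 CPM (-0.95 ± 0.13), and CYP707A2, which breaks it down, rose from 12.2 to 34.8 CPM to 59.6 to 69.1 CPM (1.5 ± 0.21). The phosphatases that restrain its signal, ABI1 and HAB1, rose by 0.92 ± 0.11 and 0.66 ± 0.12, and so did OST1, the kinase that they restrain, by 0.68 ± 0.10. Of 15 genes of drought and cold protection, 6 were higher and 0 lower, led by GolS2, a galactinol synthase, from 9.11 to 14.5 CPM to 20.7 to 37.5 CPM, and RD20, a lipid droplet protein, from 4.72 to 16.8 CPM to 27.4 to 36.9 CPM. The share called was 40.0%, against 23.5% of all genes tested. The count of 6 was 3 without mos11 replicate 1 or 2, and with Col-0 replicates 1 and 2 alone 5 were higher and 1 lower. The list was at 0.0983% and 0.0625% of all counts in Col-0 replicates 4 and 3, against 0.169% and 0.173% in replicates 1 and 2 and 0.208% to 0.22% in mos11.

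Among genes of high light, heat and reactive oxygen, 3 of 12 were higher and 3 lower, against 12.2% and 11.3% of all genes tested. The lower ones include CAT1, with a log2 fold change of -0.84, and CAT3. The call of CAT3 was lost with Col-0 replicates 1 and 2 alone as the wild type. ELIP1 and ELIP2, chlorophyll-binding proteins that protect in strong light, rose from 1.18 to 6.07 CPM to 9.24 to 26.5 CPM and from 0.804 to 2.36 CPM to 5.01 to 9.24 CPM, and the heat shock genes HSFA2, HSP101 and HSP70 did not pass the test. Of the 24 nuclear genes of photosynthesis tested, 2 were higher and 4 lower. The share called in this list was close to the 23.5% of all genes tested. CAB1 and CAB2, of the light-harvesting complex, fell by 0.80 ± 0.11 and 0.64 ± 0.09 and RBCS1B, a Rubisco subunit, rose by 1.03 ± 0.22, while RBCS1A, LHCA4 and PSBO1 were at 0.01, -0.09 and -0.10 and did not pass the test. Without Col-0 replicate 2 the list had 5 higher and 2 lower, and without mos11 replicate 1, 2, 3 or 4 it had 2 lower, with 1 higher without mos11 replicate 2 or 3. Against Col-0 replicates 1 and 2 alone, 11 of the 24 were lower. In the list for nitrate and ammonium assimilation, NIA1, a nitrate reductase, fell from 220 to 442 CPM to 150.2 to 193 CPM. GLT1, a glutamate synthase, fell by 0.58 ± 0.07 and GLU1, another glutamate synthase, rose by 0.74. That gives 1 higher and 2 lower of 9, 33.3% in all against 23.5% of all genes tested. Called in this list were 3 higher without Col-0 replicate 2, and 4 lower with Col-0 replicates 1 and 2 alone.

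RR3, a type-A response regulator that damps cytokinin signalling, was at 4834, 5397, 4547 and 4995 CPM in Col-0 and at 2235 to 2922 CPM in mos11 (-0.94 ± 0.10, adjusted p = 4.5e-05). Of the 8 type-A regulators tested, 4 were lower, RR5, ARR6 and ARR7 among them, and 2 were higher, RR16 and ARR9. The shares over all genes tested were 11.3% lower and 12.2% higher. RR16 was called in each of the 5 runs without 1 library in which it had enough counts to be tested. The calls of ARR9 and ARR7 were lost in 4 and 2 of the 9 runs, and with Col-0 replicates 1 and 2 alone neither was called. Genes of jasmonate, the wound hormone, had 0 higher and 3 lower of 12, namely JAZ10, VSP2 and OPR3. With all libraries the share called in the jasmonate list was close to the 23.5% of all genes tested. The call of VSP2 was lost in 8 of the 9 runs that left out 1 library. That list depended on the wild type libraries. Without Col-0 replicate 3, 6 of 13 were lower. With Col-0 replicates 1 and 2 alone, 10 of 13 were lower and the median went from -0.29 to -0.78, and the deviation of the list was 0.36, 0.73, -0.44 and -0.09 in Col-0 replicates 1 to 4. Of 15 flowering genes tested, 4 were higher and 3 lower, 46.7% in all against 23.5% of all genes tested. SPL3, a promoter of flowering that miR156 restrains, fell from 7.45 to 9.84 CPM to 1.51 to 4.62 CPM (-1.59 ± 0.23), and the repressors TEM1 and SMZ rose by 0.81 ± 0.14 and 0.94 ± 0.19. Of 275 genes for ribosomal proteins, 4 were higher and 12 lower, 5.82% in all against 23.5% of all genes tested.

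**Figure D3:**
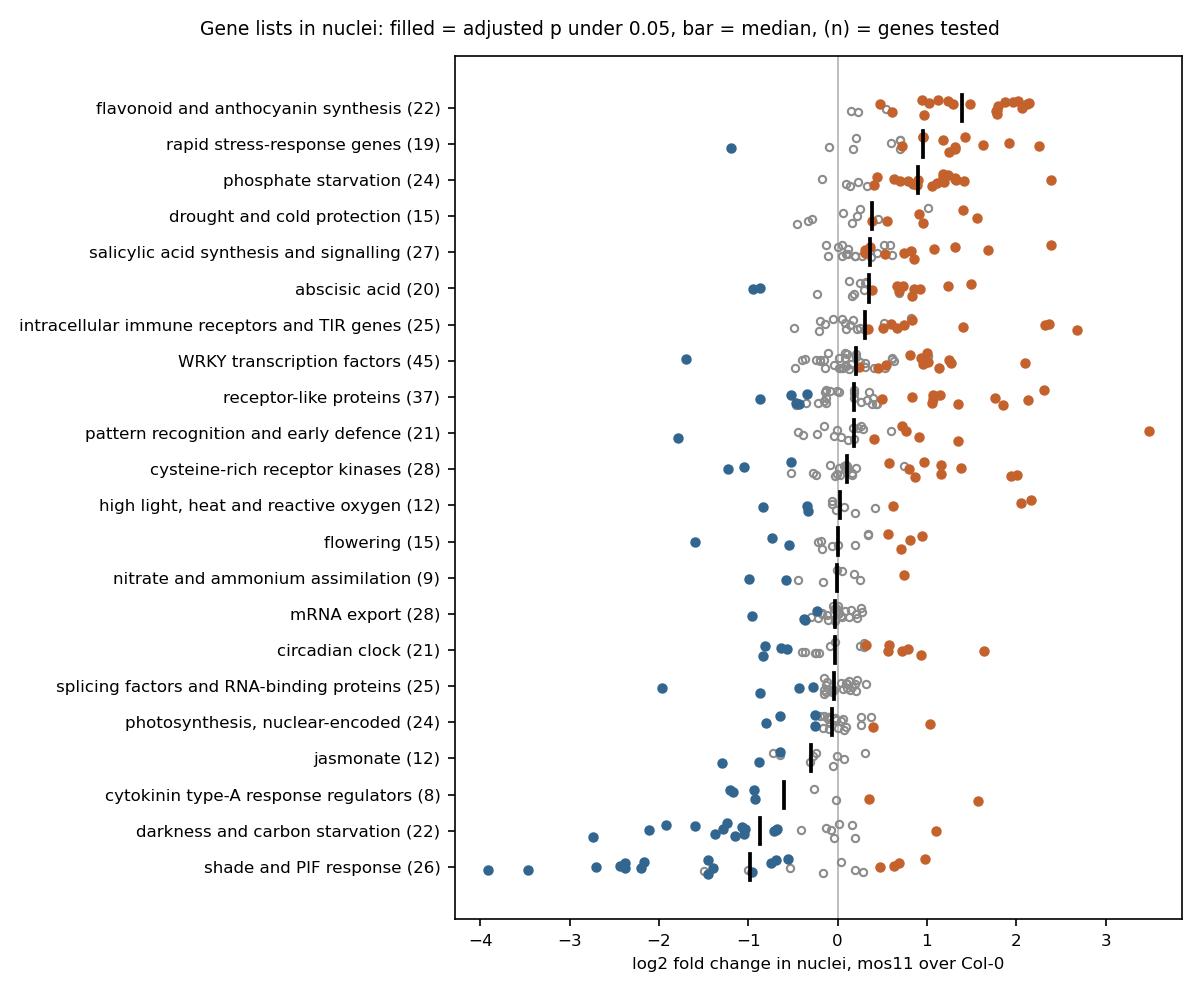
Log2 fold change of mos11 over Col-0 in nuclei for each tested member of 22 gene lists (points), ordered by the list median (bar). Filled points are genes with an adjusted p under 0.05, orange where higher and blue where lower, and the flavonoid list with a median of 1.39 and the shade list with one of -0.98 lie at the ends.

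Markers of leaf cell types moved in both directions. Of the 3 guard cell markers, the transcription factor genes MYB60 and FMA rose by 0.87 ± 0.09 and 0.74 ± 0.15, whereas KAT1, a potassium channel of the mature cell, fell by 0.54 ± 0.16, a call that was lost in 5 of the 9 runs that left out 1 library, with adjusted p-values of up to 0.083, and KAT1 was at -0.13 with Col-0 replicates 1 and 2 alone as the wild type. The summed guard cell markers took 0.0145% to 0.024% of counts in Col-0 and 0.0251% to 0.0285% in mos11. In the epidermis ABCG12, a wax exporter, rose by 0.53 and PDF1 fell by 0.49, with ATML1 at -0.05 and not called. Of the mesophyll markers CA1, a carbonic anhydrase, rose from 881, 1318, 471 and 817 CPM to 1716 to 2157 CPM, CAB1 fell and RBCS1A was level. The part of cell type proportions in the results was not tested.

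The direction of the nuclear difference varied with gene structure, though by little. Of all genes tested, 12.2% were higher and 11.3% lower, 23.5% in all. Among protein-coding genes with over 15 exons, 112 were higher and 205 lower of 1126 (28.2% called). Among those with 1 exon 362 were higher and 196 lower of 2081 (26.8% called). By transcript length, the longest quartile had 475 higher and 719 lower of 4268 (28.0% called) and the shortest 464 higher and 342 lower of 4271 (18.9% called). The medians of these classes lay between -0.05 and 0.06 on the log2 scale, and no test was made across classes. Of 213 lncRNA genes, 15 were higher and 37 lower, 24.4% in all against 23.5% of all genes tested. The share called rose with level, from 13.8% in the lowest quartile of mean nuclear CPM to 35.8% in the highest.

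The cytoplasmic libraries give the same genotype contrast in the other fraction, and 9905 genes were tested in both. In the cytoplasm 1529 of 10012 genes (15.3%) were called, 7.05% higher and 8.22% lower. Genes higher in both fractions numbered 464, which is 33.9% of the nuclear and 66.0% of the cytoplasmic calls in that direction, and genes lower in both numbered 312 (25.9% and 38.5%). Opposite calls were made for 5 and 9 genes. The cytoplasmic libraries were shallower, with 556016 to 1280371 counts.

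A difference between the fractions was tested as an interaction over all 18 libraries, which called 256 of 16207 genes (1.58%). Nuclear and cytoplasmic columns share replicate numbers, but the fit treated all 18 libraries as independent. Whether same-numbered fractions pair within a genotype was not tested, so the p-values of the interaction ignore any such pairing. Of 2575 nuclear calls that could be tested, 109 (4.23%) differed between fractions. Since these were chosen among nuclear calls, genes with the larger difference in nuclei are favoured, and the counts below are a description only. The interaction used all 18 libraries. With these fitted together, the nuclear contrast had a median log2 fold change of -0.067, and 45.5% of its calls were higher. Of the 109, 68 were lower in mos11 nuclei, 61 of these more so than in the cytoplasm, and 51 were not called in the cytoplasm. The other 41 were higher in mos11 nuclei, 30 of them more so than in the cytoplasm. The 61 had a median of 6 exons and a transcript length of 3403 bases, the 30 a median of 3 exons and 1632 bases, and all genes tested in both fractions 5 exons and 1845 bases. Medians of all lower nuclear calls were not computed. In the longest quartile of transcripts 719 genes were lower and 475 higher in nuclei, 28.0% in all against 23.5% of all genes tested. Whether length goes with the difference between fractions itself was not tested.

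The named genes with the larger fall in nuclei have varied roles. AT1G60200 was at 73.7 CPM in the Col-0 cytoplasm, with a cytoplasmic log2 fold change of -0.11 (adjusted p = 0.74) against -1.97 in nuclei, and the difference passed the interaction test (adjusted p = 1.8e-06). DCL1, the nuclease that makes microRNAs, was at 531, 472, 595 and 516 CPM in Col-0 nuclei and 232 to 269 CPM in mos11 nuclei (-1.08 ± 0.08), and at -0.23 in the cytoplasm (interaction adjusted p = 0.026). INO80, a chromatin remodeller, fell by 0.70 in nuclei and was at 0.49 in the cytoplasm (interaction adjusted p = 0.0013), SAC3B by 0.96 and was at 0.32 (0.0047), and AT3G54500 by 0.81 and was at 0.19 (0.0023). PERK10, a receptor kinase gene of the cell wall, was at 614.5, 649, 342 and 373 CPM in Col-0 nuclei and 165 to 211 CPM in mos11 nuclei and at 0.16 in the cytoplasm. NCED3, OEP16-1, AT4G38950 and PLDGAMMA2 likewise fell in nuclei without a fall that passed the test in the cytoplasm, where PLDGAMMA2 was too low to be tested on its own. AT2G35750, an uncharacterized gene, fell from 3914 to 4875 CPM to 2883 to 3772 CPM in nuclei and rose by 1.72 in the cytoplasm, from a mean of 55.6 CPM in Col-0 (interaction adjusted p = 4.4e-07).

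In the opposite direction, FBP, the fructose bisphosphatase of sucrose synthesis, rose from 159 to 245 CPM to 325 to 354 CPM in nuclei (0.80 ± 0.12) and fell by 0.56 in the cytoplasm (interaction adjusted p = 5.2e-05). UBC11, a ubiquitin-conjugating enzyme, rose from 8.45 to 10.2 CPM to 15.5 to 22.1 CPM in nuclei and fell by 1.57 in the cytoplasm (6.1e-06). CA1 rose by 1.18 in nuclei and was at -0.08 in the cytoplasm. The adjacent lipid transfer protein genes AT4G22505 and AT4G22485 rose by 1.2 and 1.1 in nuclei and were at -0.14 and -0.27 in the cytoplasm, and AT5G51190 rose by 2.25 and was at 0.10. FBP, UBC11, INO80, PERK10, DCL1, AT2G35750, AT4G22505 and AT4G22485 were chosen after their values were seen.

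**Figure D4:**
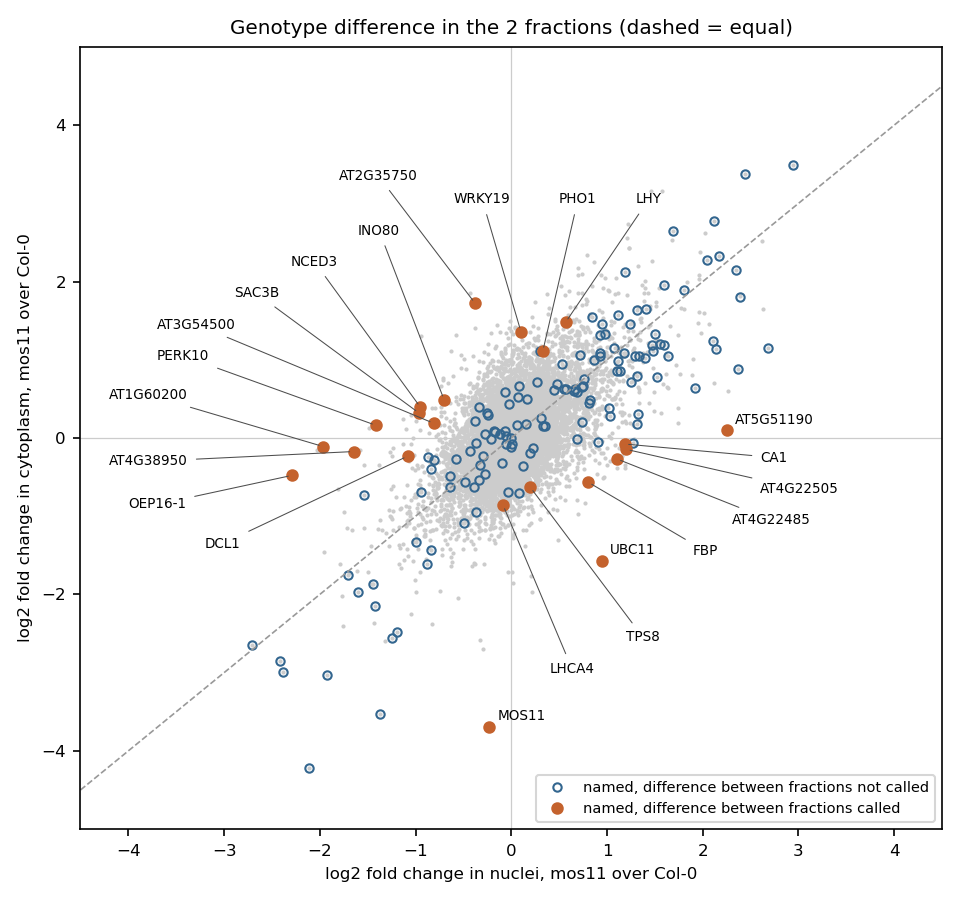
Log2 fold change of mos11 over Col-0 in nuclei (horizontal axis) and in cytoplasm (vertical axis) for the genes tested in both fractions (grey), with the named genes as circles and the dashed line where both are equal. Named genes whose difference passed the interaction test are filled, and MOS11 stands alone with -0.23 in nuclei and -3.69 in cytoplasm.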

How the data were processed

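RNA of nuclear and cytoplasmic fractions was separated by differential centrifugation and sequenced after ribosomal RNA depletion with molecular identifiers, per the labels' protocols. The authors deposited raw counts for 30901 loci in 1 table, whose columns name the genotype, replicate and fraction of each library and were assigned from those names. Per the submitters' processing notes, the tools were UMI-tools, featureCounts, Picard and STAR 2.7.8a, in no stated order, with the build TAIR10. The strand setting, and whether a column sums both flow cells, are not given in the sources used here. Loci were matched by identifier to RefSeq genes of build TAIR10.1, where all 30901 were found, and the printed sequences and their coordinates come from that build, where each start is the annotated gene start. The table itself holds no coordinates.

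The counts of the 9 nuclear libraries were fitted with edgeR 4.0.16 in R 4.3.3 (TMM scaling, default filter on low counts, quasi-likelihood test, Benjamini-Hochberg adjustment over all 17073 genes tested, threshold 0.05). Cytoplasmic libraries were fitted alone, and the difference between fractions was an interaction over all 18 libraries. Levels were computed as CPM with TMM-scaled library sizes and are not divided by length, so they do not rank genes. Standard errors of log2 fold changes were derived from the F statistic and are approximate. Alternatives were other scalings and filters, DESeq2 1.42.0, limma 3.58.1, a test against 1.5-fold, a replicate block and each library left out.

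The genes named are the 15 largest changes in each direction at a mean of at least 8 CPM with groups that did not overlap, the 10 with the largest F in each direction, MOS11 and the called among its 10 neighbours on each side, and of each list up to 6 called members with the smallest p and up to 2 others. Genes named beyond these were chosen after their values were seen, as HEI10, SNC1, RPP4, PIF7, TT4, CRK1, TPS11, TOC1, GI, ELF3, HSFA2, HSP101, HSP70 and PSBO1 were where they lie outside the rule. Members and lists were chosen with earlier results of these data known.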

Additional observations from a re-analysis of the deposited data

Results flagged for a closer look

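In 21 of 428 groups of libraries tested, about the 1 in 20 that chance gives, 1 library lay far from the others of its group. The first is depth, since mos11 replicate 2 had 18213517 counts. In Col-0 nuclei, replicate 3 was highest for XTH15 at 195 CPM, for SAC3A at 413 CPM, for RS40 at 239 CPM and for GRP7 at 125 CPM, and lowest for AT3G54500 at 2646 CPM. Col-0 replicate 2 was highest for SARD1 at 9.93 CPM and for AT2G35750 at 4875 CPM, and replicate 4 was lowest for DCL4 at 75.1 CPM. In mos11 nuclei, replicate 2 was highest for RLP38 at 20.4 CPM, for LHY at 253 CPM and for SQD2, a sulfolipid synthase gene, at 754 CPM, and lowest for AT2G33830 at 16.7 CPM. Replicate 3 of mos11 was highest for AT1G25230 at 27.6 CPM and for YUC9 at 4.53 CPM, replicate 4 was highest for ABI1 at 279 CPM, replicate 1 was lowest for MYBL2 at 177 CPM, and replicate 5 was lowest for PLDGAMMA2 at 126 CPM and BBX19 at 43.1 CPM and highest for RDR6 at 61.6 CPM and RPL24 at 62.7 CPM.

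For 23 named genes the difference between genotypes differed between nuclei and cytoplasm in the interaction test. As the log2 fold change in nuclei minus that in cytoplasm, the value was positive for MOS11 (3.45), UBC11 (2.47), AT5G51190 (2.09), FBP (1.33), AT4G22485 (1.33), AT4G22505 (1.31), CA1 (1.22), TPS8 (0.79) and LHCA4 (0.73). It was negative for AT2G35750 (-2.14), AT1G60200 (-1.89), OEP16-1 (-1.84), PLDGAMMA2 (-1.77), PERK10 (-1.62), AT4G38950 (-1.53), NCED3 (-1.39), SAC3B (-1.31), WRKY19 (-1.31), INO80 (-1.23), AT3G54500 (-1.04), LHY (-0.96), DCL1 (-0.89) and PHO1 (-0.82). TPS8, LHCA4, WRKY19 and PHO1 did not pass the test in nuclei alone. LHY was higher in mos11 in both fractions, by 0.57 in nuclei and by 1.48 in cytoplasm. For OEP16-1 the cytoplasmic log2 fold change was -0.48 (adjusted p = 0.12).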

How the results depend on the processing

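The count of 4013 genes called stayed within 1.5 times under another scaling (3997), no filter on low counts (3957), a filter at 1 CPM in 4 libraries (4107), DESeq2 (3717), limma voom (4003), all 18 libraries fitted together (3254), and mos11 replicate 2 thinned (3668). In each, every gene called in both kept its direction, but with all 18 libraries the balance turned, with 1482 higher and 1772 lower against 2082 and 1931. Tested against a change of 1.5-fold, 468 were called, 285 higher and 183 lower, of which 423 had a fitted change over 2-fold. Replicate numbers did not pair the nuclear libraries of the 2 genotypes. The correlations of same-numbered deviations were 0.08, -0.03, -0.09 and -0.02, and only number 1 matched best its own number. With the number as a replicate block, 2520 genes were called, 1125 of them lower. Without 1 library the count ran from 2705 to 4464, with 1441 to 2424 higher, 1264 to 2040 lower and 598 to 992 over 2-fold, and the lowest count of lower genes was that without mos11 replicate 2. With Col-0 replicates 1 and 2 alone it was 4435, 2168 higher and 2267 lower. MOS11 stayed lower in every setting, but its call at an adjusted p of 0.046 was lost with no filter (log2 fold change -0.24, 0.063), with the CPM filter (-0.23, 0.05), with all 18 libraries (-0.28, 0.055), against 1.5-fold (-0.23, 1.0) and with the block (-0.20, 0.18), and without 1 library it ran from -0.26 to -0.18 with adjusted p-values of up to 0.11. Of 157 named genes, nearly all of them called, 0 changed direction without 1 library, 12 lost their call in at least 1 run besides MOS11 and 8 moved by over 1.5 times. This set was chosen mostly for large or clear changes. It leaves out part of the genes named in the text, among them AGO2, whose call was lost in several runs. The cytoplasmic count of 1529 and the interaction count of 256 were 1545 and 251 with another scaling, and the interaction count was 229 with the block. Depth limits genes with low counts, since 17073 of 30901 could be tested.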

Other observations

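Genes of the response to phosphate starvation, a list chosen after the rises of PHT1;5, G3Pp1 and SRG3 were seen, were mostly higher in mos11 nuclei. Of 26 members 24 were tested, 19 were higher, those 3 among them, and 0 lower, against 12.2% and 11.3% of all genes tested, with a median log2 fold change of 0.90. The members are not only genes that starvation induces but also regulators such as PHR1 and PHO2, and PHO2 (0.63) is counted among the 19. SPX1, a sensor protein that restrains the response, was at 256, 159, 143 and 204 CPM in Col-0 and at 397, 446, 426, 446 and 435 CPM in mos11 (1.18 ± 0.14, SE), with no overlap between the groups. SPX3 of the same family rose by 1.41, SQD2, which makes the sulfolipid that replaces phospholipids, by 1.33, PAP17, an acid phosphatase gene, by 1.24, and the phosphate transporter gene PHT1;4 by 1.12. PHR1, the transcription factor that drives these genes, did not pass the test (-0.17), nor did IPS1, a non-coding RNA of the response, at 0.23 with means of 5.95 and 6.81 CPM, or PHO1, the exporter into the xylem, at 0.33. PHT1;9 and AT5G03545, at 0.09 and 0.14, did not pass it either. In the cytoplasm PHO1 rose by 1.11 (adjusted p = 0.00043 in edgeR), and the difference between the fractions passed the interaction test (adjusted p = 0.048). The count was 17 to 19 without any 1 library and 20 of 25 with Col-0 replicates 1 and 2 alone as the wild type. The labels give soil or MS medium as substrate without assigning either to a group.

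The B-box genes of light signalling and the genes of small RNA pathways were looked up in the same way, after BBX32 and DCL1 had been seen. Of 14 tested B-box genes 6 were higher, with BBX18 at 1.59, BBX19 at 1.18 and BBX16 at 1.08 beside BBX32, and 3 were lower, with BBX12 at -0.69, BBX27 at -0.58 and BBX21 at -0.33, against 12.2% higher and 11.3% lower of all genes tested. Of 14 tested genes for Dicer-like, Argonaute and RNA-dependent RNA polymerase proteins, 6 were lower, DCL1 among them, against 11.3% of all genes tested. DCL1 fell by 1.08, and AGO1, which binds microRNAs, RDR6, DCL4, AGO10 and DCL2 by 0.34 or less. The count of 6 was 3 without mos11 replicate 2 or 3 and 4 without Col-0 replicate 1 or mos11 replicate 1 or 4, and 3 with all 18 libraries fitted together or with the replicate block. AGO2 was the 1 called higher (0.27, adjusted p = 0.049). No member was called higher with no filter on low counts, the filter at 1 CPM, DESeq2, limma voom, all 18 libraries, the test against 1.5-fold, the block or mos11 replicate 2 thinned, nor without Col-0 replicate 3 or 4 or mos11 replicate 1, 2, 3 or 4.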
